A study of Mus musculus with 8 samples.

Results

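The expression of 10 chemokine genes made by CD8+ T cells was followed in bulk RNA-seq of mouse spleen cells. The genes are *Ccl1*, *Ccl3*, *Ccl4*, *Ccl5*, *Ccl9*, *Ccl22*, *Xcl1*, *Cxcl9*, *Cxcl10* and *Cxcl11*. They were taken by gene symbol, and all 10 were found among the 22520 genes and assembled transcripts of the table. CD8+ T cells purified from spleens of male C57BL/6J mice (6 to 8 weeks old) were kept with antibodies to CD3 and CD28 and with IL-2 for 6 days. From day 3, the medium held either DMSO, the solvent, or 40 µM DADA (diisopropylamine dichloroacetate, an inhibitor of pyruvate dehydrogenase kinase), and RNA was taken on day 6. Each group had 4 libraries, called DMSO 1 to 4 and DADA 1 to 4 here. All cells, those with DMSO included, had the same stimulation, so no library shows resting cells or cells before DADA. The study calls the 4 libraries of a group biological replicates, and neither the labels nor the methods say whether they came from separate mice.

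Chemokines are small secreted proteins that draw cells along a gradient by binding receptors that span the membrane. Activated CD8+ T cells release CCL3, CCL4 and CCL5, which attract T cells and myeloid cells, and XCL1, which binds XCR1 on cross-presenting dendritic cells. CXCL9, CXCL10 and CXCL11 bind CXCR3, the receptor that leads effector T cells into inflamed tissue and tumors, and their genes are classical targets of interferons. The comparison asks which of these transcripts changed when cells under persistent stimulation were given DADA.

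Expression is given as FPKM, a read count corrected for transcript length and sequencing depth, so levels of different genes can be set side by side. Testing required at least 1 FPKM in 4 or more libraries out of 8. The test was limma on log2(FPKM + 1), with Benjamini-Hochberg adjustment over the 10666 genes tested, and a gene was called at an adjusted p under 0.05. Of the 10 chemokine genes, 6 were tested, 5 of which rose with DADA and 1 of which fell. Most genes moved in this comparison. Of all genes tested, 66.2% were called, 30.9% as higher and 35.3% as lower with DADA, so a call alone does not set a gene apart. Only 3.56% of the genes tested were called as higher with a log2 fold change of at least 1. *Ccl3*, *Ccl4*, *Ccl5*, *Xcl1* and *Cxcl10* were in that group. The pseudocount of 1 understates the change of low genes, so this cut and ranks by log2 fold change favour genes with higher levels. The median log2 fold change was 1.54 over the 6 chemokine genes tested and -0.02 over all genes tested. In all 6 the DMSO and DADA libraries did not overlap, which held for 60.6% of the genes tested. For *Ccl9*, the gene that fell, this followed from the filter, since its DMSO libraries alone reached 1 FPKM.

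The libraries had an estimated 13660000 to 16420000 mapped fragments with DMSO and 15120000 to 18920000 with DADA. The estimate came from the steps between the lowest FPKM values, since the values carry no counts. The T cell label held in every library: 6 genes of CD8+ T cells (*Cd3d*, *Cd3e*, *Cd3g*, *Cd8a*, *Cd8b1* and *Lck*) summed to 862 to 881 FPKM with DMSO and to 980 to 1013 FPKM with DADA. All 6 were called higher with DADA, as were 30.9% of all genes tested, with a median log2 fold change of 0.23 over the 6. Bulk RNA does not tell more producing cells apart from more RNA per cell, for any gene named here.

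*Ccl3* and *Ccl4* were the leading chemokine transcripts in every library. They encode MIP-1α and MIP-1β, chemokines that T cells make within hours of T cell receptor (TCR) engagement. *Ccl3* (ENSMUSG00000000982) was measured at 90.7, 88.0, 88.3 and 81.6 FPKM in DMSO 1 to 4 and at 230, 256, 238 and 240 FPKM in DADA 1 to 4. Every DADA library lay above every DMSO library, and the spread within either group was small beside the gap. The mean went from 87.1 ± 3.88 to 241 ± 10.9 FPKM (SD, n = 4 each), 2.76 times as high, with a log2 fold change of 1.46 (SE 0.0397, limma adjusted p = 8.10e-10). *Ccl4* (ENSMUSG00000018930) was at 55.6, 59.7, 61.1 and 56.8 FPKM with DMSO and at 174, 189, 177 and 184 FPKM with DADA. It too rose in every DADA library, by a slightly larger factor of 3.11 (log2 fold change 1.62, SE 0.0367, limma adjusted p = 2.06e-10). *Ccl3* exceeded *Ccl4* 1.44- to 1.63-fold with DMSO and 1.30- to 1.35-fold with DADA. The log2 ratio of *Ccl3* to *Ccl4* thus went from 0.57 ± 0.08 to 0.41 ± 0.03 (SD, n = 4 each, exact two-sided permutation p = 0.0286, adjusted over 3 ratios 0.0286). This is the smallest p that 70 assignments of 4 against 4 libraries allow.

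The promoter of *Ccl3*, the most abundant of the 10, is printed here, and 4 more follow beside the genes they belong to. Each is the 250 bases upstream from RefSeq on GRCm38.p6, and they run 5′ to 3′ on the gene's strand and end at the base before the transcription start, which is counted as -1. RefSeq's promoter table had 7 of the 10 genes, and *Ccl4*, *Ccl5* and *Cxcl11* were not in it. Capitals mark every match, on either strand, to 4 short motifs. These are the interferon-stimulated response element (ISRE, searched as GAAANNGAAA), the κB site of NF-κB (GGGNNNTTCC), the AP-1 site (TGANTCA) and the GGAAA core bound by NFAT and by other factor families. The core can lie inside an ISRE or κB match. Of 32851 promoters of this length, 2.98% held the ISRE, 4.65% the κB site, 6.75% the AP-1 site and 55.6% the GGAAA core. TATAAA, held by 12.4%, was searched as well and is not in capitals. The interferon-γ activated site, searched as TTCNNNGAA and present in 7.02% of promoters, had no match in the 7 genes. For *Ccl3* (chr11:83649379-83649628, minus strand), the capitals are 2 GGAAA cores on the reverse strand, and the other motifs had no match.
Ccl3: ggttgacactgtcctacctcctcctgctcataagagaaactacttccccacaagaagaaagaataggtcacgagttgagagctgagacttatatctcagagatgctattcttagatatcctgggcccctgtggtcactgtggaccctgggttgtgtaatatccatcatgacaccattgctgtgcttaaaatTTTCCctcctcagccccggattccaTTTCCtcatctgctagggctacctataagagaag

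*Ccl5* had the largest fitted log2 fold change of the 10 genes, although *Cxcl10* rose by a like factor and equalled it, at 3.67, with a pseudocount of 0.1 in place of 1. *Ccl5* encodes RANTES, a ligand of CCR1 and CCR3 that memory and effector CD8+ T cells store and release. *Ccl5* (ENSMUSG00000035042) was at 12.5, 10.1, 10.7 and 10.5 FPKM in DMSO 1 to 4 and at 136, 149, 133 and 145 FPKM in DADA 1 to 4. The lowest DADA library, at 133 FPKM, was far above the highest DMSO library, at 12.5 FPKM. The mean rose from 11.0 ± 1.06 to 141 ± 7.38 FPKM (SD, n = 4 each), 12.9 times as high. The log2 fold change was 3.57 (95% interval 3.44 to 3.71, SE 0.0605, limma adjusted p = 3.74e-11), which ranked 8 among the 10666 genes tested by log2 fold change, highest first. *Ccl5* was at 0.115 to 0.138 of the *Ccl3* level with DMSO and at 0.560 to 0.607 with DADA. The log2 ratio of *Ccl5* to *Ccl3* rose by 2.12, from -2.88 ± 0.10 to -0.77 ± 0.05 (SD, n = 4 each, exact two-sided permutation p = 0.0286, adjusted over 3 ratios 0.0286).

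**Figure D1:**
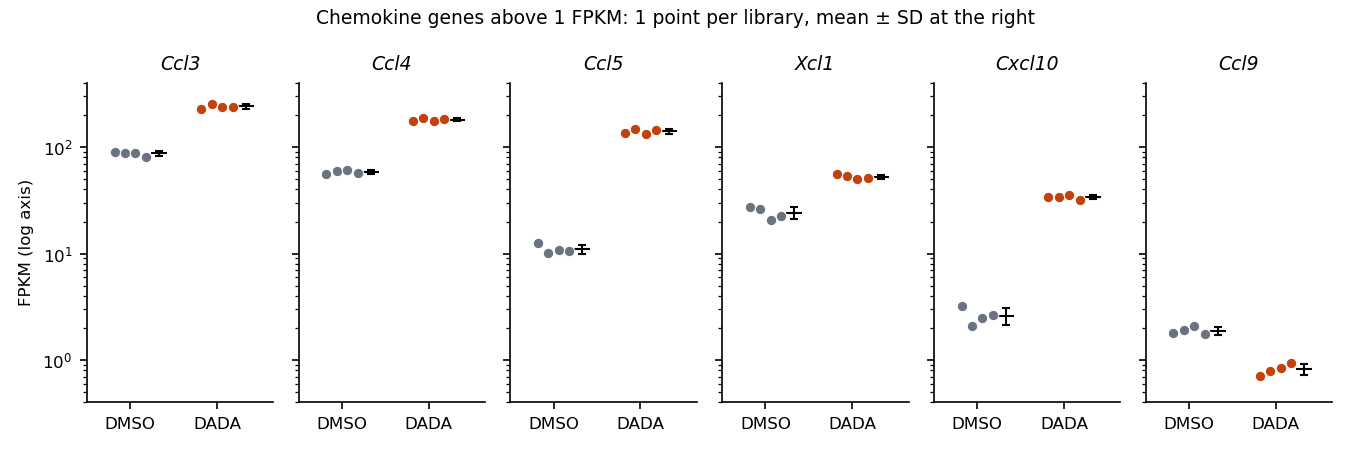
FPKM (log axis) of the 6 chemokine genes tested in 4 DMSO (grey) and 4 DADA (orange) libraries, 1 point per library, with the group mean ± SD at the right of each group. *Ccl5* and *Cxcl10* rose furthest, to 141 and 33.9 FPKM on average, *Ccl3*, *Ccl4* and *Xcl1* rose from higher levels, and *Ccl9* fell from 1.88 to 0.821 FPKM.

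*Cxcl10* was the one CXCR3 ligand with more than trace expression. It encodes IP-10, a chemokine named for its induction by interferon-γ. *Cxcl10* (ENSMUSG00000034855) was at 3.24, 2.08, 2.46 and 2.67 FPKM with DMSO and at 34.3, 34.0, 35.2 and 32.1 FPKM with DADA. The 4 DADA libraries lay close together, and the lowest of them, at 32.1 FPKM, was well above the highest DMSO library, at 3.24 FPKM. The mean was 2.61 ± 0.484 and 33.9 ± 1.29 FPKM (SD, n = 4 each), 13.0 times as high with DADA. Its log2 fold change was 3.28 (95% interval 3.10 to 3.47, SE 0.0839, limma adjusted p = 4.86e-10), rank 14 of 10666. *Art3*, which overlaps *Cxcl10* and *Cxcl11* in the annotation, was at 0 to 0.111 FPKM in the 8 libraries.

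The neighbours of *Cxcl10* on chromosome 5 gave next to no signal. *Cxcl9*, the CXCR3 ligand known as MIG, had a value above 0 in DADA 4 alone, of 0.0352 FPKM, an estimated 1.92 fragments. *Cxcl11*, classed as a transcribed pseudogene in RefSeq's mouse annotation, gave 0.116, 0.0865, 0.110 and 0.101 FPKM in DADA 1 to 4 and 0 with DMSO throughout. Those 4 values are an estimated 7.77, 6.04, 6.30 and 7.22 fragments. The DADA libraries of *Cxcl11* were all above the DMSO libraries (exact two-sided permutation p = 0.0286), at a mean of 0.103 FPKM beside 33.9 FPKM for *Cxcl10*. The 3 CXCR3 ligands thus did not have like levels with DADA, although they lie next to each other: in order of start, RefSeq lists no coding gene or transcribed pseudogene between *Cxcl10* and *Cxcl11* and 1 between *Cxcl9* and *Cxcl10*. The log2 ratio of *Cxcl9* to *Cxcl10*, with the pseudocount in both, went from -1.84 ± 0.19 to -5.11 ± 0.08 (SD, n = 4 each, exact two-sided permutation p = 0.0286, adjusted over 3 ratios 0.0286). It moved through *Cxcl10*, since *Cxcl9* was listed at 0 in 7 of the 8 libraries.

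The promoters of *Cxcl10* and *Cxcl9* are printed because these neighbours, both CXCR3 ligands, differ so far in level. That of *Cxcl10* (chr5:92348890-92349139, minus strand) held the one ISRE match among the 7 promoters, at -213 to -204. It held κB sites at -159 to -150 and at -104 to -95, and an AP-1 site at -74 to -68. It also held 3 GGAAA cores, the first of which overlaps the ISRE and the second the κB site at -159. That of *Cxcl9* (chr5:92328080-92328329, minus strand) held 3 GGAAA cores and no match to the ISRE, κB or AP-1 letters in this window. A match describes letters and does not show that a factor binds there.
Cxcl10: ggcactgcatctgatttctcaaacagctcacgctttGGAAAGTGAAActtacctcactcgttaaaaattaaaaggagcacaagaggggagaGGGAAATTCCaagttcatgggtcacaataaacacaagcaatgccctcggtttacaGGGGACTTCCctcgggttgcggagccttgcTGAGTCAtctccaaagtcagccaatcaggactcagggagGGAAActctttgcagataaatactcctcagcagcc
Cxcl9: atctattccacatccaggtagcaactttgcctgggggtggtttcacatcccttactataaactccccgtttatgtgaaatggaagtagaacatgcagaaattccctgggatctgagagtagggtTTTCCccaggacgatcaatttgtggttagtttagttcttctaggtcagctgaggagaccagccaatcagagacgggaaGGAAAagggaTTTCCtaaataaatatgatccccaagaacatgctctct

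*Xcl1*, which encodes lymphotactin, rose least among the 5 genes that rose. *Xcl1* (ENSMUSG00000026573) was at 27.4, 26.1, 20.8 and 22.5 FPKM in DMSO 1 to 4 and at 55.3, 53.1, 50.7 and 50.9 FPKM in DADA 1 to 4. The groups were well apart, and the DMSO libraries were spread more widely for their level than those of *Ccl3* or *Ccl4*. The mean of 24.2 ± 3.07 FPKM became 52.5 ± 2.17 FPKM (SD, n = 4 each), 2.17 times as high (log2 fold change 1.09, SE 0.0763, limma adjusted p = 7.60e-07). In DMSO *Xcl1* stood above *Ccl5* in every library, and in DADA *Ccl5* stood above *Xcl1* in every library. Its promoter (chr1:164935523-164935772, minus strand) is printed because *Xcl1* is the one gene that rose and lies outside the clusters on chromosomes 5 and 11. It held 1 GGAAA core on the reverse strand and no match to the other motifs.
Xcl1: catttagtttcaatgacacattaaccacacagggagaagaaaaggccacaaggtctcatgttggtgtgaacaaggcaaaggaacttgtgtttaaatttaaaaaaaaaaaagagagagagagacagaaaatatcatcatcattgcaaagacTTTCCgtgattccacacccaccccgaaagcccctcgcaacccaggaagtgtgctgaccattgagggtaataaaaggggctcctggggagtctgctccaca

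*Ccl9* was the one chemokine gene of the 10 that fell past the test. It encodes MIP-1γ, a ligand of CCR1. *Ccl9* (ENSMUSG00000019122) was at 1.78, 1.93, 2.08 and 1.75 FPKM with DMSO and at 0.714, 0.783, 0.850 and 0.938 FPKM with DADA. All DADA libraries were below 1 FPKM, so *Ccl9* was tested through its DMSO libraries alone and a difference followed from the filter. The mean was 1.88 ± 0.154 FPKM with DMSO and 0.821 ± 0.0957 FPKM with DADA (SD, n = 4 each), a ratio of 0.436. The log2 fold change was -0.66 (SE 0.0660, limma adjusted p = 1.05e-05). A pseudocount of 0.1, which weighs less on so low a gene, gave -1.11. *Ccl9* lies on chromosome 11 beside *Ccl5*, with no such gene between them, and is separated by 1 from *Ccl3*, both of which rose. Its promoter (chr11:83578637-83578886, minus strand) is printed as that of the gene that fell. It held an AP-1 site at -53 to -47, a κB match on the reverse strand at -35 to -26 and 2 GGAAA cores, 1 of them inside the κB match.
Ccl9: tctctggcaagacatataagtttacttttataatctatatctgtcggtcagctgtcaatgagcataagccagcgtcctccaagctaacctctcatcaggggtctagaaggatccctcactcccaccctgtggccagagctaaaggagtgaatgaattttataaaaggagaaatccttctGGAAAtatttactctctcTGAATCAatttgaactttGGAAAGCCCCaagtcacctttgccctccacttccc

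**Figure D2:**
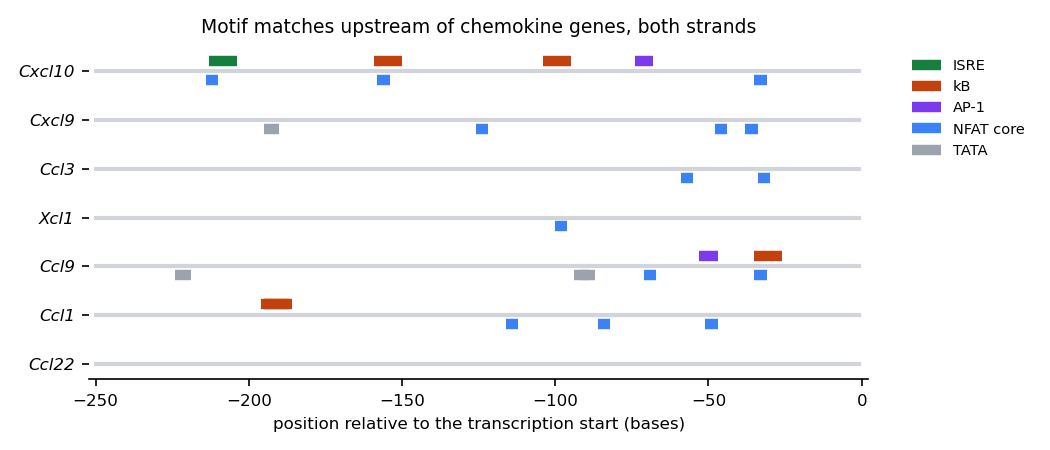
Position of motif matches on both strands in the 250 bases before the transcription start of the 7 chemokine genes in RefSeq's promoter table, with ISRE, κB and AP-1 above each line and the GGAAA core (NFAT core) and TATAAA below it. *Cxcl10* carries the only ISRE and 2 κB matches, *Ccl9* and *Ccl1* have κB matches, and *Cxcl9*, *Ccl3* and *Xcl1* carry only GGAAA cores or TATAAA.

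*Ccl1* and *Ccl22*, whose products bind CCR8 and CCR4, were at the limit of detection. *Ccl1* was at 0.104, 0.273, 0.493 and 0.241 FPKM with DMSO, an estimated 3.28 to 14.3 fragments. With DADA it was listed at 0 in 3 libraries and at 0.176 FPKM in DADA 2. The groups overlapped through DADA 2 (exact two-sided permutation p = 0.0571). *Ccl22* gave 0.0261, 0.0221, 0.0917 and 0.0726 FPKM in DADA 1 to 4 and 0 in each DMSO library. Those 4 values rest on an estimated 1.02, 0.901, 3.07 and 3.04 fragments, so the exact two-sided permutation p of 0.0286 compares next to nothing with 0. Without the filter on low values, limma called *Ccl1* lower (adjusted p = 0.0337) and *Ccl22* (adjusted p = 0.0241) and *Cxcl11* (adjusted p = 2.15e-05) higher, so that 9 of the 10 genes were called. In that fit 48.7% of the 16167 genes tested were called.

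**Figure D3:**
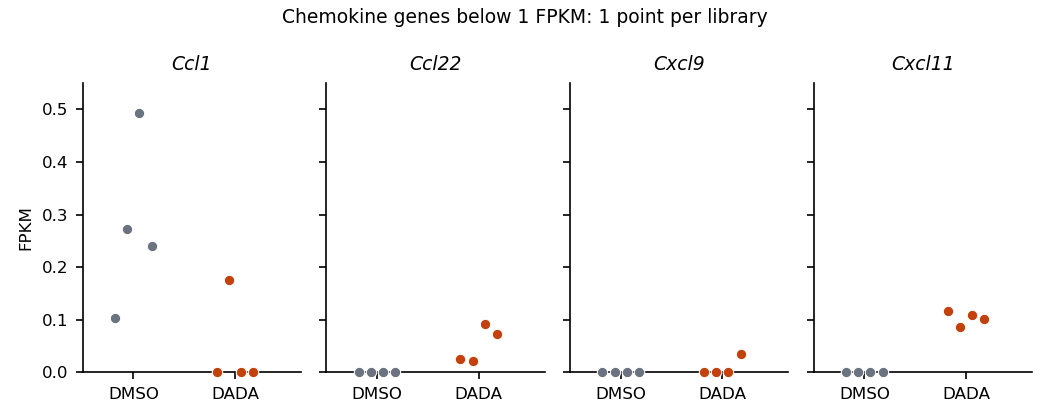
FPKM of the 4 chemokine genes below the filter, 1 point per library. *Cxcl11* lies between 0.0865 and 0.116 FPKM in the 4 DADA libraries while its DMSO libraries read 0, *Cxcl9* is above 0 in 1 library only, and *Ccl1* is spread from 0.104 to 0.493 FPKM with DMSO.

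The order of the levels changed in 1 place. With DMSO it ran *Ccl3*, *Ccl4*, *Xcl1*, *Ccl5*, *Cxcl10* and *Ccl9*, and with DADA *Ccl3*, *Ccl4*, *Ccl5*, *Xcl1*, *Cxcl10* and *Ccl9*. Neighbours in these orders did not overlap over the 4 libraries of a group, with the exception of *Cxcl10* and *Ccl9* with DMSO, whose ranges of 2.08 to 3.24 FPKM and 1.75 to 2.08 FPKM met. Among all genes tested, *Ccl9* ranked 10439 by log2 fold change, highest first, while *Ccl4*, *Ccl3* and *Xcl1* ranked 138, 178 and 327.

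The make-up of the chemokine transcripts was set beside these changes. All 37 chemokine genes of the list, these 10 and 27 others, summed to 192 ± 5.90 FPKM with DMSO and to 656 ± 23.1 FPKM with DADA (SD, n = 4 each), a ratio of 3.41. *Ccl3*, *Ccl4* and *Ccl5* together held 80.4% to 83.2% of that sum with DMSO and 84.9% to 86.4% with DADA. Within them the weight moved to *Ccl5*. Its share of the sum was 5.71% ± 0.477 with DMSO and 21.5% ± 0.530 with DADA. The share of *Ccl3* was 45.3% ± 0.724 with DMSO and 36.7% ± 0.554 with DADA, although its level was higher with DADA. *Ccl4* was at 30.4% ± 1.55 and 27.6% ± 0.243, *Xcl1* at 12.6% ± 1.37 and 8.01% ± 0.464, and *Cxcl10* at 1.36% ± 0.244 and 5.18% ± 0.308. The DMSO and DADA ranges of these shares did not overlap for any of the 5. Shares of 1 sum depend on each other, so they are given as a description with no test.

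**Figure D4:**
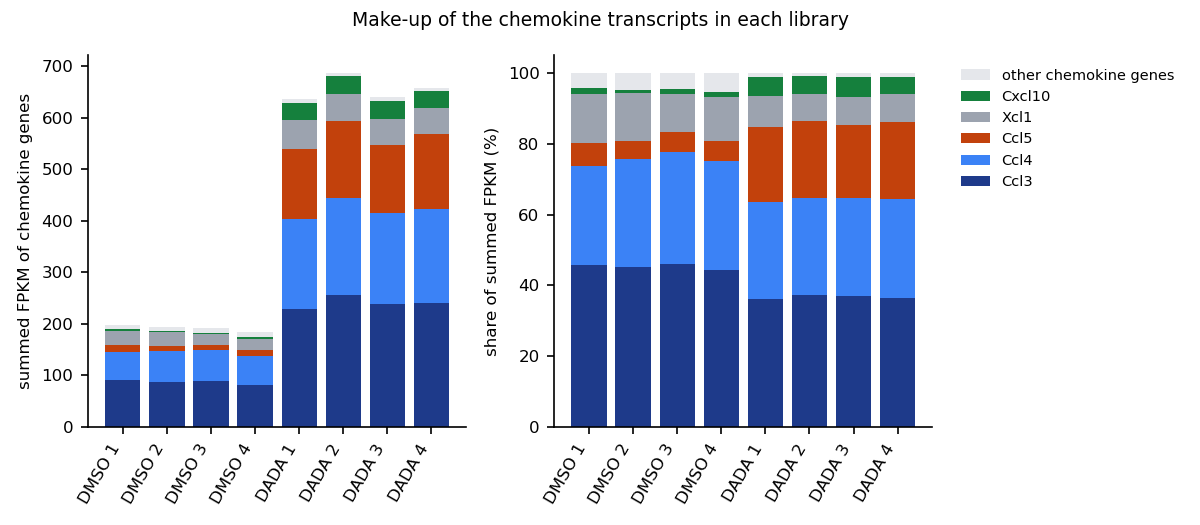
Summed FPKM of 37 chemokine genes in each library (left) and the share of each gene in that sum in percent (right), stacked by gene. The summed level is 184 to 198 FPKM in the DMSO libraries and 636 to 687 FPKM in the DADA libraries, and the band of *Ccl5* widens from 5.20% to 6.34% of the sum to 20.8% to 22.1%.

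The other 27 chemokine genes hardly contributed. They summed to 6.19 to 7.79 FPKM with DMSO and to 5.38 to 5.78 FPKM with DADA, and 16 of them were listed at 0 in every library. Testing covered 3 of the 27, of which 0 rose and 1 fell by limma, beside 30.9% and 35.3% of all genes tested. The other 2, *Ccl25* (exact two-sided permutation p = 0.657) and *Ccl27a* (exact two-sided permutation p = 0.771), did not pass that test either. The gene that fell was *Ccl20*, the CCR6 ligand, named after its values were seen. It was at 1.35, 1.77, 1.20 and 1.73 FPKM with DMSO and at 0.127, 0.404, 0.0853 and 0.332 FPKM with DADA (log2 fold change -1.02, SE 0.111, limma adjusted p = 1.96e-05). No DADA library reached 1 FPKM, so *Ccl20* was tested through its DMSO libraries alone and a difference followed from the filter. *Ccl25*, a thymic and gut chemokine, was at 3.10 ± 0.277 and 3.25 ± 0.524 FPKM (SD, n = 4 each, log2 fold change 0.05, 95% interval -0.16 to 0.25). *Ccl27a* was at 1.68 ± 0.427 and 1.60 ± 0.227 FPKM (log2 fold change -0.03, 95% interval -0.28 to 0.21). *Ccl27a* has near-identical copies in the mouse genome, so its value is uncertain.

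Among 11 receptors, scavenging receptors and the chemokine-trimming peptidase DPP4, 6 were tested, of which 4 rose, 1 fell and 1 was not called. For comparison, 66.2% of all genes tested were called. *Ccr1* and *Ccr3*, receptors of CCL5, were near 0 with DMSO. *Ccr1* rose from 0.159 ± 0.0254 to 1.28 ± 0.123 FPKM (log2 fold change 0.98, limma adjusted p = 5.79e-07). *Ccr3* rose from 0.0205 ± 0.0297 to 1.06 ± 0.0546 FPKM (log2 fold change 1.01, limma adjusted p = 3.23e-07). Both were tested through their DADA libraries alone, so that a difference followed from the filter. *Ccr4*, the CCL22 receptor, rose slightly, from 14.3 ± 0.690 to 16.9 ± 0.326 FPKM (log2 fold change 0.22, limma adjusted p = 4.85e-04).

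*Cxcr3*, the receptor of CXCL10, did not follow its ligand past the test. It was at 4.45, 3.31, 3.83 and 3.40 FPKM with DMSO and at 3.15, 3.52, 3.31 and 3.13 FPKM with DADA. The groups overlapped, with a log2 fold change of -0.15 (95% interval -0.32 to 0.03, limma adjusted p = 0.121). With quantile normalization it was called lower (log2 fold change -0.26, limma adjusted p = 0.0147). *Dpp4*, whose product trims CXCL10 and CCL5 at the N-terminus, fell from 23.0 ± 0.726 to 18.9 ± 0.565 FPKM (log2 fold change -0.27, limma adjusted p = 5.38e-05). *Ccr8*, the CCL1 receptor, was not tested, at 1.36, 1.15, 1.01 and 0.720 FPKM with DMSO and at 0.231, 0.505, 0.316 and 0.329 FPKM with DADA. Its DMSO libraries were all above its DADA libraries (exact two-sided permutation p = 0.0286). *Xcr1*, the XCL1 receptor of dendritic cells, was not tested and reached 0.131 FPKM at most. It was at 0 to 0.0454 FPKM with DMSO and at 0.0750 to 0.131 FPKM with DADA, without overlap (exact two-sided permutation p = 0.0286). *Ackr1* and *Ackr2* reached 0.0496 and 0.0831 FPKM at most, and *Ackr3* was listed at 0 throughout.

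Genes of interferon signalling, of TCR and NF-κB signalling and of effector differentiation were read as 3 lists. Whether any of them drove the chemokine changes was not tested. In the interferon pathway list, 15 of 15 genes were tested, 9 rose and 4 fell. The median log2 fold change was 0.19 against -0.02 over all genes tested. Over all genes tested, 30.9% were called higher and 35.3% lower. *Irf7*, the factor that amplifies type I interferon responses, was at 1.09, 1.27, 1.07 and 1.18 FPKM with DMSO and at 29.9, 29.6, 29.7 and 28.9 FPKM with DADA (log2 fold change 3.83, SE 0.0416, limma adjusted p = 2.68e-12). *Stat2*, part of the complex that binds the ISRE, rose from 11.9 ± 0.162 to 32.4 ± 0.576 FPKM (log2 fold change 1.38, limma adjusted p = 7.74e-11). *Ifnar1*, a chain of the type I interferon receptor, fell by 0.37 on the log2 scale (limma adjusted p = 1.49e-06), and *Irf3* fell by 0.18 (limma adjusted p = 0.00138). The genes of this list did not all move one way.

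In the TCR and NF-κB list, 16 of 17 genes were tested, 11 rose and 3 fell, with a median log2 fold change of 0.33. The shares over all genes tested, here and for the effector factors below, were 30.9% called higher and 35.3% lower. *Jun*, an AP-1 subunit, was at 7.12, 7.33, 6.90 and 6.65 FPKM with DMSO and at 20.9, 19.5, 19.5 and 20.5 FPKM with DADA (log2 fold change 1.40, limma adjusted p = 1.06e-09). *Irf4*, induced in step with TCR signal strength, rose from 74.3 ± 1.41 to 140 ± 1.84 FPKM (log2 fold change 0.91, limma adjusted p = 3.05e-10). *Nfkb2* and *Nfkb1*, which encode the p100 and p105 precursors, fell by 0.52 (limma adjusted p = 3.53e-08) and by 0.45 (limma adjusted p = 5.25e-08) on the log2 scale. In the list of effector factors, all 10 genes were tested, 8 rose and 1 fell, with a median log2 fold change of 0.45. That list includes *Klf2*, which the study used as a marker of stem-like CD8+ T cells. *Prdm1*, which encodes the effector factor BLIMP-1, rose from 0.661 ± 0.0853 to 7.56 ± 0.806 FPKM (log2 fold change 2.36, limma adjusted p = 2.18e-09). All its DMSO libraries were below 1 FPKM, so its DADA libraries alone brought it into the test and a difference followed from the filter. *Klf2*, a factor of T cell trafficking, was at 0.682, 1.03, 0.727 and 0.932 FPKM with DMSO and at 2.51, 2.88, 3.01 and 3.72 FPKM with DADA (log2 fold change 1.13, limma adjusted p = 4.18e-06), and also entered the test through its DADA libraries. *Eomes*, a T-box factor of memory cells, fell by 0.36 on the log2 scale (limma adjusted p = 2.94e-05).

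**Figure D5:**
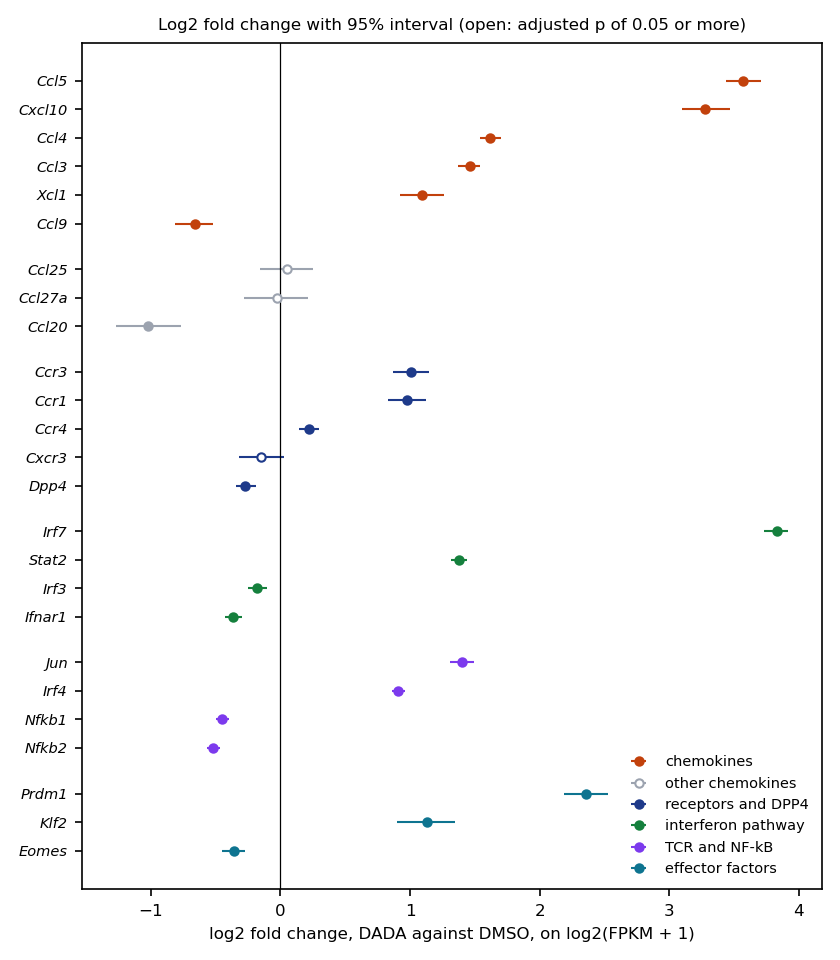
Log2 fold change with DADA on the log2(FPKM + 1) scale, with its 95% interval from limma, for the chemokine genes tested, 4 of the receptors, *Dpp4* and the named factors, coloured by list. Filled points passed an adjusted p of 0.05. *Irf7*, *Ccl5* and *Cxcl10* lie furthest to the right at 3.83, 3.57 and 3.28, and *Cxcr3*, *Ccl25* and *Ccl27a* are open.

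The genes whose pattern over the 8 libraries was most like that of *Ccl3*, the chemokine gene with the highest mean, were found by Pearson's r of log2(FPKM + 1) among 8133 genes. They were *Evl* (r = 0.9996), *Sdc4* (r = 0.9991) and *Emb* (r = 0.9991). *Evl* went from 93.2 ± 1.78 to 136 ± 2.19 FPKM, and *Sdc4* from 2.39 ± 0.289 to 17.8 ± 1.16 FPKM (SD, n = 4 each). The 8 points form 2 groups, so any gene that moves cleanly with DADA comes near these values, and r says little about likeness within a group.

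Other leukocytes also make these chemokines, so their markers were read in the same libraries. Of 8 myeloid markers, 0 were tested, *Csf1r*, *Adgre1* and *S100a8* were listed at 0 in all libraries, and the list summed to 0.0839 to 0.499 FPKM with DMSO and 0.118 to 0.567 FPKM with DADA. The dendritic cell markers *Clec9a* and *Cd209a* were also at 0 throughout. Their list summed to 65.0 to 75.2 and 82.2 to 86.9 FPKM through *Batf3* and *Zbtb46*, which activated T cells also express. The 3 NK cell markers *Ncr1*, *Klrb1c* and *Klra8* summed to 0 to 0.0959 FPKM with DMSO and to 0.144 to 0.346 FPKM with DADA, without overlap. The gap came through *Klrb1c*, at 0 to 0.0484 FPKM with DMSO and at 0.144 to 0.249 FPKM with DADA. *Ncr1* was at 0 in 6 libraries, and *Klra8* was above 0 in DADA 1 alone. CD4 T cell markers summed to 0.342 to 0.718 and 0.486 to 0.519 FPKM. B cell markers summed to 2.59 to 3.54 and 2.36 to 3.09 FPKM, nearly all of it *Cd79b*, with *Pax5* at 0 throughout. Platelet and erythroid markers summed to 0.512 to 0.779 and 0.394 to 0.600 FPKM. The part of NK cells, dendritic cells or other leukocytes in the chemokine levels was not tested.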

How the data were processed

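RNA from 8 libraries of mouse splenic CD8+ T cells, 4 with DMSO and 4 with DADA, was sequenced as paired reads of 150 bp. Each gene has 1 FPKM value per library in the table that the authors deposited. The submitters' processing notes name CASAVA 1.8.2, FastQC 0.11.9, HISAT2 2.0.5, StringTie 1.3.3, Picard 1.41 and SAMtools 0.1.18, and the builds GRCm39 and GRCh38, with no role or order given. The build behind the FPKM values is therefore not known here, and gene positions from GRCm38 were used only for sequences and gene order. Labels and methods name different library kits. Groups were taken from the sample titles.

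FPKM values were used as deposited. Genes that reached 1 FPKM in at least 4 libraries were fitted as log2(FPKM + 1) with limma 3.58.1 in R 4.3.3 (lmFit, then eBayes with its trend option), and p-values were adjusted by Benjamini-Hochberg over all genes tested. The fit was first tested on simulated data. Fold changes on this scale understate the change of low genes. Single values were tested by an exact two-sided permutation test over 70 assignments. Fragments per library were estimated from the low values of 4431 genes with 1 transcript in GENCODE M21. Of these low values, 38.9% to 43.8% lay near whole fragments, so no count test was run and fragment numbers are estimates. Fragments of a gene were computed with its longest annotated transcript, so they may be too high for genes with more than 1 transcript. Variance between libraries of a group was 1.97 to 3.38 times the counting noise so estimated, over 5640 genes, and no 2 libraries were identical. P-values measure the spread between these libraries, which may be technical.

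The chemokine genes and gene lists were chosen with earlier results of these data known. Genes were named by a rule: the 10 chemokine genes, all receptors, other chemokine genes averaging 1 FPKM or more, the 2 largest calls in each direction of each factor list, and the 3 genes most like *Ccl3*. Counts over lists include a few genes whose own values are not reported here. Alternatives were a pseudocount of 0.1, no filter, a mean of at least 5 FPKM, TPM, median-ratio and quantile scaling, a block for replicate number, eBayes without the trend and each library left out. A fit without the 404 assembled transcripts was added after seeing the data. Python 3.11.15 with numpy 2.4.6, scipy 1.17.1, pandas 2.3.3 and matplotlib 3.10.9 was used.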

Additional observations from a re-analysis of the deposited data

How the results depend on the processing

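The 6 chemokine genes tested kept their direction and their call in every one of the 17 alternatives in which they were tested. *Ccl9* was left untested with a mean of at least 5 FPKM, which left 5 called genes. Over all 36 named genes, 466 of 476 values kept direction and side of the threshold, 0 lost their call, 6 gained one and 4 changed sign. Genes that the filter left untested were counted here as not called. *Ccl1*, *Ccl22*, *Cxcl11*, *Ccr8* and *Xcr1* were such genes, called without the filter, and *Cxcr3* gained its call with quantile normalization. The changes of sign were in genes not called: *Ccl25* was at -0.07 with quantile normalization and at -0.01 to 0.11 with each library left out (-0.01 without DADA replicate 1), and *Ccl27a* was at -0.09 to 0.07 with each library left out (0.07 without DMSO replicate 4 and 0.02 without DADA replicate 1). Without the filter, 3 of 11 other chemokine genes were called (1 higher, 2 lower), and with a mean of at least 5 FPKM none of them was left to test. With that mean, 3 of 3 receptor genes were called (2 higher, 1 lower), since fewer were tested. The share of calls that were higher was 46.7%, and 42.2% to 51.6% under other scalings.

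Replicate numbers did not pair the libraries: deviations of same-numbered libraries correlated at 0.095, -0.12, -0.088 and 0.075. With the replicate block, 6 chemokine genes were called, and 6995 genes in all against 7064 without it. The 3 within-library ratios kept their differences when same-numbered libraries were paired. Their exact two-sided sign-flip p was then 0.125 each, above 0.05 and the smallest that 4 pairs allow. No named gene lost its call.

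Depth limits *Ccl1*, *Ccl22*, *Cxcl9* and *Cxcl11*, which rest on a few estimated fragments.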
